A study of Mus musculus with 12 samples.

Results

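PGC-1alpha -/- and +/+ mouse hepatocytes were compared while both carried a short hairpin RNA against TLS. The comparison took the 3 arrays of -/- cells and the 3 arrays of +/+ cells whose titles name the TLS hairpin (shTLS), 6 of the 12 arrays of the series. All cells were primary hepatocytes of C57BL/6 mice, isolated by collagenase perfusion and kept in medium with serum, 100 nM dexamethasone and 100 nM insulin. They were infected with the adenovirus at a multiplicity of 5, and total RNA was taken 24 h after infection. The other 6 arrays held cells of the same 6 mice, 3 per genotype, with a control hairpin (shC). The labels give neither the age of the mice nor the part of the gene that was deleted. They describe the deletion as the genotype of the mice.

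PGC-1alpha, the product of Ppargc1a, coactivates transcription: it binds no DNA itself but docks on nuclear receptors and other factors such as ERR alpha, PPAR alpha, HNF4 alpha, FOXO1 and the nuclear respiratory factors. In liver it is induced by fasting signals and is known for raising genes of gluconeogenesis, fatty acid oxidation, mitochondrial respiration and the detoxification of reactive oxygen species. TLS, the target of the hairpin, is a nuclear RNA-binding protein with roles in transcription and splicing.

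Ppargc1a read 8.84, 8.91 and 8.67 (log2 intensity) in -/- shTLS cells of replicates 1 to 3 and 8.56, 10.99 and 8.42 in +/+ shTLS cells. Replicate 2 of the +/+ cells stood above the other 5 arrays, which lay within a narrow band. The difference was -0.52 (SE 0.67, 95% interval -2.00 to 0.97; limma, adjusted p = 1.00), and it was 0.32 without that array. The array carries 1 probe for Ppargc1a, and without the deleted part of the gene this signal checks no genotype label.

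Between 23353 and 26679 of 41174 probes were well above background on the 6 shTLS arrays. With 3 arrays a side, the median standard error of a genotype difference was 0.397 (log2), and this limits how small a change can be seen. Arrays of 1 genotype correlated at 0.952 to 0.967 (-/-) and 0.942 to 0.967 (+/+), and the highest correlation of all, 0.987, was between replicate 3 of both genotypes, which shared a slide. Each group always lay at 1 position of the slide, and the effect of the position cannot be told apart from that of the group. Markers of hepatocytes were present: all 33 genes of a hepatocyte list, albumin and transport proteins among them, were tested, and Alb read 16.86 to 17.55.

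Few genes separated the genotypes under TLS knockdown. Of 18196 genes or accessions tested, 16 had a limma p below 0.05 after Benjamini-Hochberg adjustment and are referred to as called (0.0879% of those tested). At an unadjusted p under 0.05 the share was 2.11%. Of the called genes, 8 were higher and 8 lower in -/- cells. Over all genes tested, 2.73% had every -/- array above every +/+ array and 2.6% had every -/- array below. The arrays did not overlap on any of the 16, which were chosen on this same contrast, and all but 5 of the 16 entered the test through 1 genotype alone, the other not being above background on all its arrays. The median difference over all genes was 0.008, and 78.6% of genes differed by less than 0.5 (log2). With the replicate number as a block, 34 were called (0.187%), 14 higher and 20 lower, and all 16 were among them. With the block 1237 genes had an unadjusted limma p under 0.05, against 384 without it. Symbols were found for 7 of the 16 called genes, and the other 9 are known here by a sequence accession alone.

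**Figure D1:**
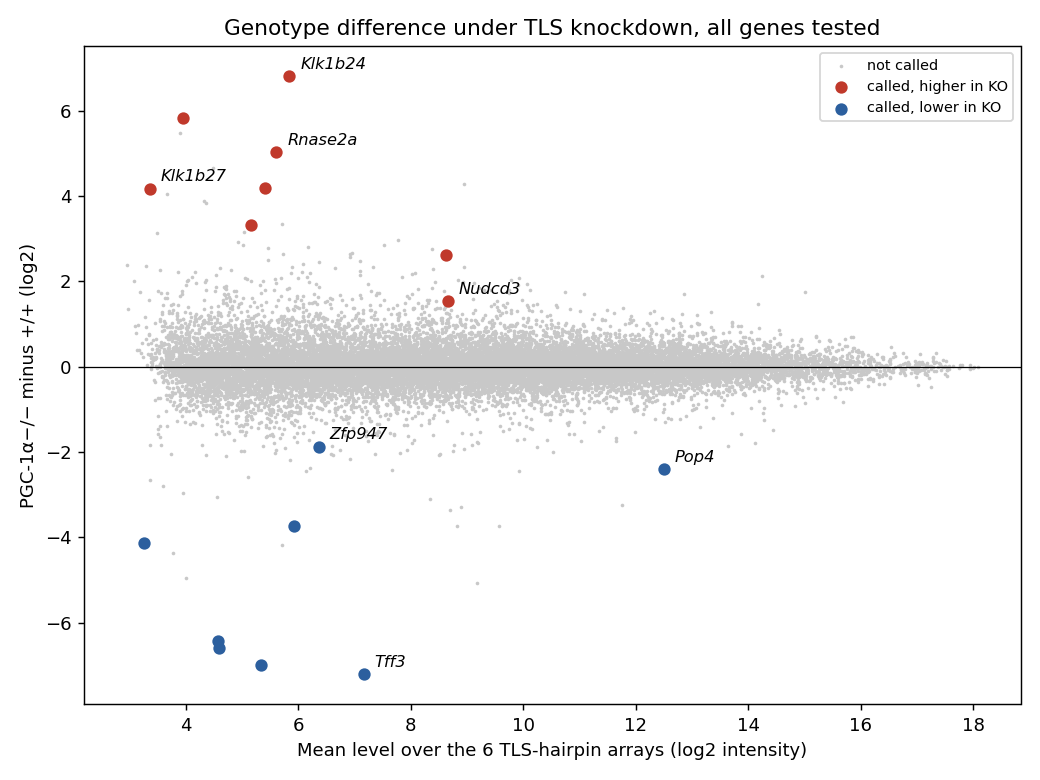
Genotype difference (-/- minus +/+, log2, vertical axis) against the mean level over the 6 shTLS arrays (log2 intensity, horizontal axis), 1 point per gene or accession. The 8 called higher (red) and 8 called lower (blue) are labelled where they have a symbol; Pop4 is the called gene with the highest mean level.

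Among the called genes with a symbol were 2 glandular kallikreins. Klk1 encodes tissue kallikrein, a serine protease that releases kinins from kininogen, and the Klk1b genes are its tandem copies in the mouse, known from the salivary gland. Klk1b24 read 8.90, 9.07 and 9.78 in -/- cells and 1.99, 2.72 and 2.60 in +/+ cells. The 3 -/- arrays were all high and the 3 +/+ arrays were all not well above background (below background from here on). It rose by 6.81 (log2, as are all differences; SE 0.46, adjusted p = 8.77e-05), at least 53.4-fold. For such a bound, each array of the dim genotype enters with the lowest signal that counted there as well above background, or with the probe's own signal where that was higher. Such bounds hold for the deposited values alone. With normexp background correction the differences were smaller (3.01 for Klk1b24, less than its bound).

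Klk1b27 read 5.38, 5.07 and 5.89 in -/- cells and 1.26, 1.24 and 1.33 in +/+ cells, again without overlap. It rose by 4.17 (SE 0.44, adjusted p = 0.00286), at least 3.83-fold. Klk1b21 read 4.84, 4.25 and 6.07 against 1.86, 1.33 and 2.57, also with all +/+ arrays below background. Its difference of 3.13 (SE 0.62) had an adjusted p of 0.207, and 0.000756 with the replicate block. The bound for Klk1b21 is at least 2.91-fold. With normexp Klk1b27 differed by 0.64 and Klk1b21 by 0.47, each less than its bound.

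These 3 copies are shown because their upstream sequences are nearly the same letters. The windows are the 250 bases before each gene's annotated start (RefSeq, GRCm38.p6, plus strand), at chr7:44187986-44188235 for Klk1b24, chr7:44052040-44052289 for Klk1b27 and chr7:44102042-44102291 for Klk1b21. Capitals mark the longest run shared by all 3, 89 bases, which lies at a different distance from each annotated start.
Klk1b24: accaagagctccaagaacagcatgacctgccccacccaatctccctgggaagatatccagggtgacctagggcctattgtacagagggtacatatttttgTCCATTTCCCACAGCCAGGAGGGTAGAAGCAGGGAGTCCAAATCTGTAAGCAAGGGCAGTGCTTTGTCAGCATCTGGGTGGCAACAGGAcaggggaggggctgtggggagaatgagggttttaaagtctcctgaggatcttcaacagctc
Klk1b27: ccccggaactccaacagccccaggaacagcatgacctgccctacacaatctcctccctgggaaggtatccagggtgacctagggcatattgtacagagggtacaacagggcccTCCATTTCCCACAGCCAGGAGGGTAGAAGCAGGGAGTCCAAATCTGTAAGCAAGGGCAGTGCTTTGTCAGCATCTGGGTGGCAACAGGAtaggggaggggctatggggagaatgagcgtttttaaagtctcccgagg
Klk1b21: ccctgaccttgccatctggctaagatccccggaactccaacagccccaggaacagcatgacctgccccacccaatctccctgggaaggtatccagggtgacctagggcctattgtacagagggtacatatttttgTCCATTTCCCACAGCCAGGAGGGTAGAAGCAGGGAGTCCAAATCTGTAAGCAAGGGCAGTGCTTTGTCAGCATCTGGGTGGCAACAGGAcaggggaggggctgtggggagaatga
In pairwise alignments with free ends Klk1b24 and Klk1b21 shared 97.7% of 215 aligned bases, Klk1b27 and Klk1b21 93.0% of 228, and Klk1b24 and Klk1b27 90.0% of 241. Copies so alike can also share sequence in the transcript, and whether a probe picks up a neighbouring copy was not tested.

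No other tested kallikrein of the cluster with a symbol was called. The 9 called without a symbol were not assigned to any gene family. Klk1 read 6.53, 6.35 and 7.45 in -/- cells against 4.87, 5.17 and 5.48 in +/+ cells, a difference of 1.60 (SE 0.36, adjusted p = 0.436). Klk1b3 read 6.22, 5.98 and 7.14 against 3.02, 4.25 and 3.52, a difference of 2.85 (SE 0.67, adjusted p = 0.452). Neither passed the test, although the genotypes did not overlap at either probe. Klk1b8 differed by 0.49 (SE 0.27) and Klk1b4 by 0.21 (SE 0.39), with overlapping arrays. Of the 7 tested members of the cluster with a symbol, 2 were called, against 0.0879% of all genes tested. Klk1b24, Klk1b27, Klk1b21, Klk1b3 and Klk1b4 entered the test through the -/- cells alone, a filter that favours higher -/- values for them. Klk1b4 is the 1 member whose sign turned under a change of processing (-0.03 with normexp).

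**Figure D2:**
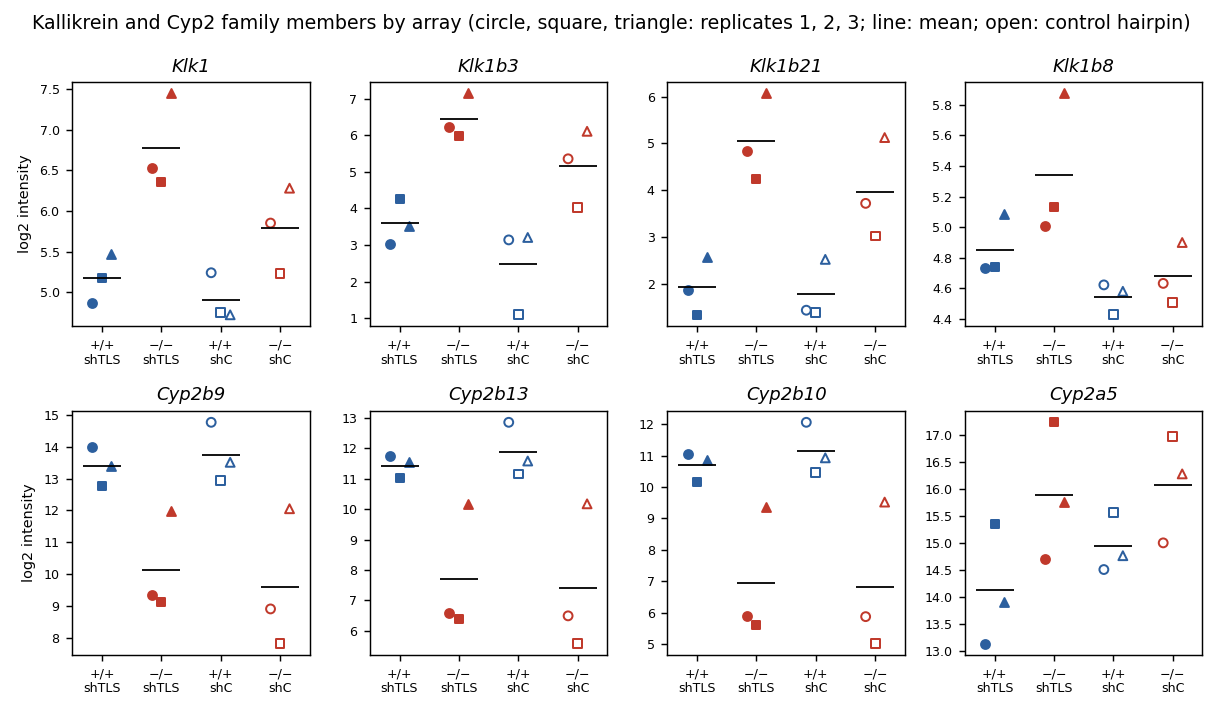
Log2 intensity by array for 4 kallikreins (top) and 4 Cyp2 genes (bottom), in +/+ (blue) and -/- (red) cells with the TLS hairpin (filled) or the control hairpin (open). Marker shape gives the replicate and the line the mean of 3 arrays; vertical scales differ between panels. Klk1, Klk1b3 and Klk1b21 are higher on every -/- shTLS array than on any +/+ shTLS array, and replicate 3 (triangle) of the -/- cells is nearest to the +/+ cells for the Cyp2b genes.

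A pair of other named genes rose. Rnase2a, an eosinophil-associated ribonuclease, read 8.76, 8.08 and 7.55 in -/- cells and 3.49, 3.04 and 2.76 in +/+ cells, where no array was above background. It rose by 5.03 (SE 0.66, adjusted p = 0.0181), at least 23.8-fold. With normexp it differed by 1.785, less than that bound. Nudcd3, a NudC domain cochaperone of dynein, read 9.53, 9.14 and 9.63 against 7.89, 7.95 and 7.86. It rose by 1.53 (SE 0.23, adjusted p = 0.0496), just inside the threshold. With any 1 of the 6 arrays left out, neither gene was called, whereas Klk1b24 and Klk1b27 were called each time.

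Tff3, Pop4 and Zfp947 were the named genes that fell. Tff3 encodes a trefoil factor, a small secreted peptide best known from mucus-producing goblet cells. It read 3.06, 4.82 and 2.80 in -/- cells and 9.93, 11.83 and 10.54 in +/+ cells, and only replicate 2 of the -/- cells was above background. It fell by 7.21 (log2, SE 0.97), with an adjusted p of 0.0216. With 2 of the 3 -/- arrays below background, the size rests in part on signals below background, and it was -3.95 with normexp background correction, where it was not called. The call was lost without -/- replicate 1 or 3 or without any +/+ replicate (adjusted p up to 0.134), and with no filter on background (0.113). Rnase2a was not called without that filter either (0.0822).

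Pop4 encodes a subunit of RNase P and RNase MRP, the ribonucleoproteins that trim transfer RNA and ribosomal RNA precursors. It read 11.10, 11.33 and 11.48 in -/- cells and 13.87, 13.41 and 13.84 in +/+ cells. The groups were each tight and well separated, and all 6 arrays were above background. Pop4 fell by 2.41 (SE 0.26, adjusted p = 0.0033), and its second probe differed by -1.22. Rpp14, another RNase P subunit, read 10.01, 10.15 and 10.24 against 11.72, 11.03 and 11.57. Its difference of -1.31 (SE 0.29) did not pass the test (adjusted p = 0.371). Zfp947, a zinc finger gene, read 5.46, 5.61 and 5.23 against 7.65, 6.92 and 7.35 and fell by 1.87 (SE 0.26, adjusted p = 0.0253). Pop4 was called whichever array was left out, and Zfp947 only when +/+ replicate 2 was. When the 6 shTLS arrays were fitted alone, neither was called (adjusted p = 0.0637 for Pop4 and 0.27 for Zfp947), nor was Nudcd3 (0.341).

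Of the 9 called without a symbol, the 2 with the smallest p in each direction are given. The sequence BB098755 read 1.56, 1.27 and 1.23 in -/- cells and 8.42, 7.57 and 7.35 in +/+ cells and fell by 6.43 (SE 0.30, adjusted p = 4.98e-06), at least 26.2-fold. AK017277 fell by 6.99 (SE 0.43), at least 54.1-fold. In the other direction NM_010707 rose by 3.32 (SE 0.26), at least 8.64-fold, and NM_021304 by 2.61 (SE 0.25). With normexp NM_010707 differed by 0.94, AK017277 by -2.565 and BB098755 by -1.868, each smaller in size than its bound. NM_021304 was not called when the 6 shTLS arrays were fitted alone (adjusted p = 0.0637). Of the 16 called, 4 were below background on all -/- arrays, 5 were below background on all +/+ arrays, and 5 were above background on all 6. When only probes above background on all 6 arrays were tested, 3 were called.

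**Figure D3:**
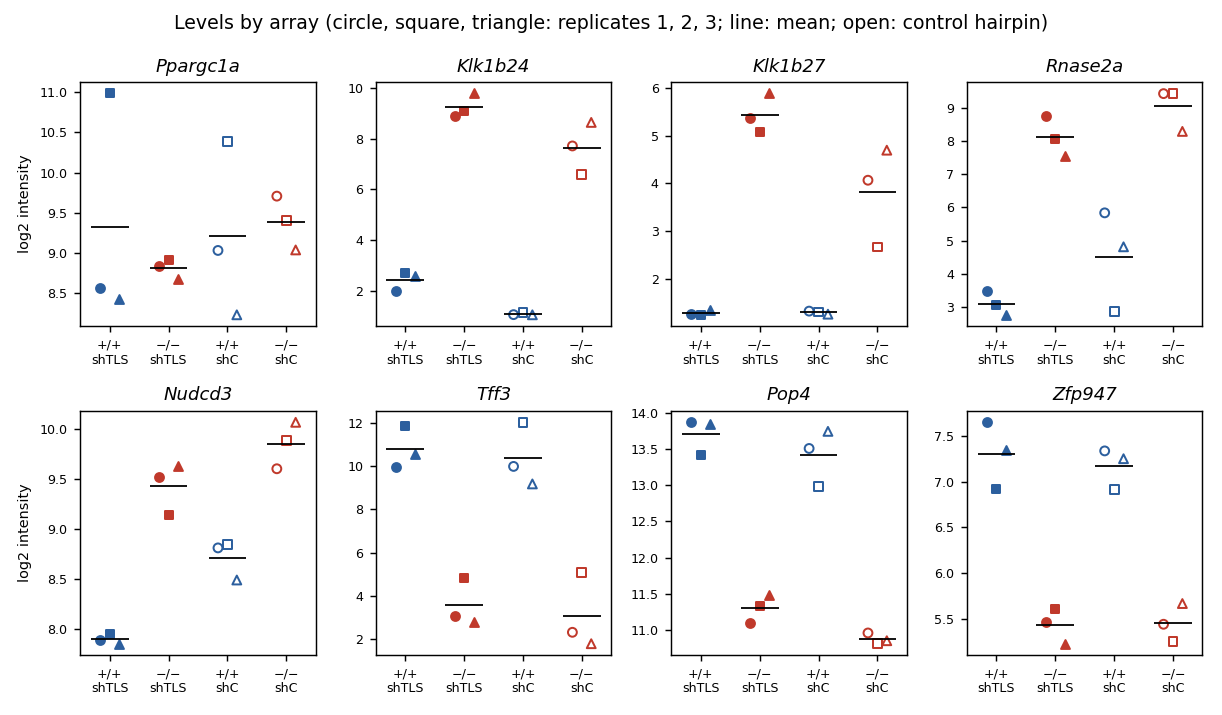
Log2 intensity by array for Ppargc1a and the 7 called genes with a symbol, in +/+ (blue) and -/- (red) cells with the TLS hairpin (filled) or the control hairpin (open). Marker shape gives the replicate and the line the mean of 3 arrays; vertical scales differ between panels. The genotypes do not overlap under TLS knockdown for any of the 7 called genes, and they overlap for Ppargc1a.

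Fewer than 10 named genes were called in each direction, so the genes next in order of p are given as values. Igsf23, of the immunoglobulin superfamily, read 11.77, 10.73 and 10.77 in -/- cells against 6.44, 8.36 and 5.66 in +/+ cells, a difference of 4.27 (SE 0.68, adjusted p = 0.0622). Its second probe differed by 4.87, and both probes separated the genotypes strongly. Galnt11, which starts mucin-type O-glycans, differed by 2.03 (SE 0.33, adjusted p = 0.0712), and Gm3696 by 2.68 (SE 0.46, adjusted p = 0.094). Atp2c1, the calcium and manganese pump of the Golgi, differed by 1.98 (SE 0.39) at 1 probe and by -0.18 and -0.09 at the other probes, so its probes disagree.

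On the lower side Gfer, the sulfhydryl oxidase of the mitochondrial intermembrane space also known as augmenter of liver regeneration, read 10.55, 10.37 and 11.39 against 12.59, 12.06 and 12.91. The genotypes did not overlap at Gfer, with a difference of -1.75 (SE 0.34, adjusted p = 0.207). Guca1b, an activator of photoreceptor guanylate cyclase, differed by -2.06 (SE 0.36) and Arl4d, a small GTPase, by -1.88 (SE 0.37). Rchy1, a ubiquitin ligase that acts on p53, differed by -1.42 (SE 0.32) and by -1.36 at its second probe. Bmp2k, a kinase, differed by -3.09 (SE 0.48) at 1 probe but by -0.05 and -0.49 at the others. Zfp146 differed by -2.16 (SE 0.35) at 1 probe and -0.93 at the other.

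With the replicate number as a block, 7 of these 13 uncalled genes passed. They were Igsf23 (adjusted p = 0.0262), Galnt11 (0.0184), Atp2c1 (0.0272), Klk1b21 (0.000756), Bmp2k (0.0255), Guca1b (0.0128) and Gfer (0.0128).

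The positions of these genes are given as a description, with no test. Of 21 named genes with an unadjusted p under 0.001, 7 lie on chromosome 7, 4 on chromosome 17, 3 each on chromosomes 5 and 14, 2 on chromosome 11, and 1 each on chromosomes 2 and 9. Those of chromosome 7 are Igsf23, Zfp146, Pop4, Klk1b21, Klk1b27, Klk1b24 and 4933405O20Rik, in that order. They fall within a stretch of 300 of the 973 tested named genes of that chromosome, which holds 7.79% of the 12484 tested named genes with a position. Of these 7, 3 are tandem Klk1b copies. On chromosome 17, Zfp947, Gfer, Tff3 and Guca1b span 360 of 604. Ppargc1a itself lies on chromosome 5, and of the 40 tested genes next to it, 20 on either side, 0 were called (limma, 0 at an unadjusted p under 0.05, and 0 with the replicate block). Their median difference was 0.09, and 24 of 40 were above 0.

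The genotype comparison with the control hairpin used cells of the same mice on other arrays, so the comparisons share animals and are not independent. There 16 genes were called too (0.0879%), 6 higher and 10 lower, and 11 of the 16 called with shTLS were among them. Tff3 differed by -7.33 with shC, Klk1b24 by 6.56, Rnase2a by 4.56, Pop4 by -2.54 and Zfp947 by -1.71, each called there as well. Klk1b27 differed by 2.52 (SE 0.44) with shC and 4.17 with shTLS. Nudcd3 differed by 1.13 (SE 0.23) and 1.53. Neither was called with shC (adjusted p = 0.11 and 0.256), and the difference between hairpins did not pass the test for either (unadjusted p = 0.022 and 0.25, adjusted p = 1.00).

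A test of whether the genotype difference itself changed with the hairpin called 0 of 18196 genes (limma, 0.0% of those tested). At an unadjusted p under 0.05 there were 43. This fit, also used above for Klk1b27 and Nudcd3, took the arrays as independent. Each mouse gave an array with either hairpin, so the error included differences between mice. With mouse as a random block (correlation 0.584) 239 passed unadjusted, with the replicate block 182, and 0 were called in either. The 0 calls do not show that the genotype difference was the same with both hairpins. The named gene farthest from equality was 4933405O20Rik. It read 3.47, 8.52 and 7.90 in -/- shTLS cells and 1.13, 1.15 and 1.21 in +/+ shTLS cells. All 3 -/- arrays were above background, replicate 1 far less so than the other two. The difference was 5.46 (SE 0.98, adjusted p = 0.122), at least 8.69-fold, while with shC no array of either genotype was above background. The change between hairpins was 5.39 (SE 1.39, unadjusted p = 0.0026, adjusted p = 1.00). Without -/- shTLS replicate 1 it was 6.97 (SE 0.34, adjusted p = 4.22e-05), the 1 interaction that any of the alternatives called. The gene entered the test through the -/- shTLS cells alone. No array of the other groups was above background, so this SE rests largely on signals below background. With normexp the genotype difference with shTLS was 1.38, less than its bound.

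**Figure D4:**
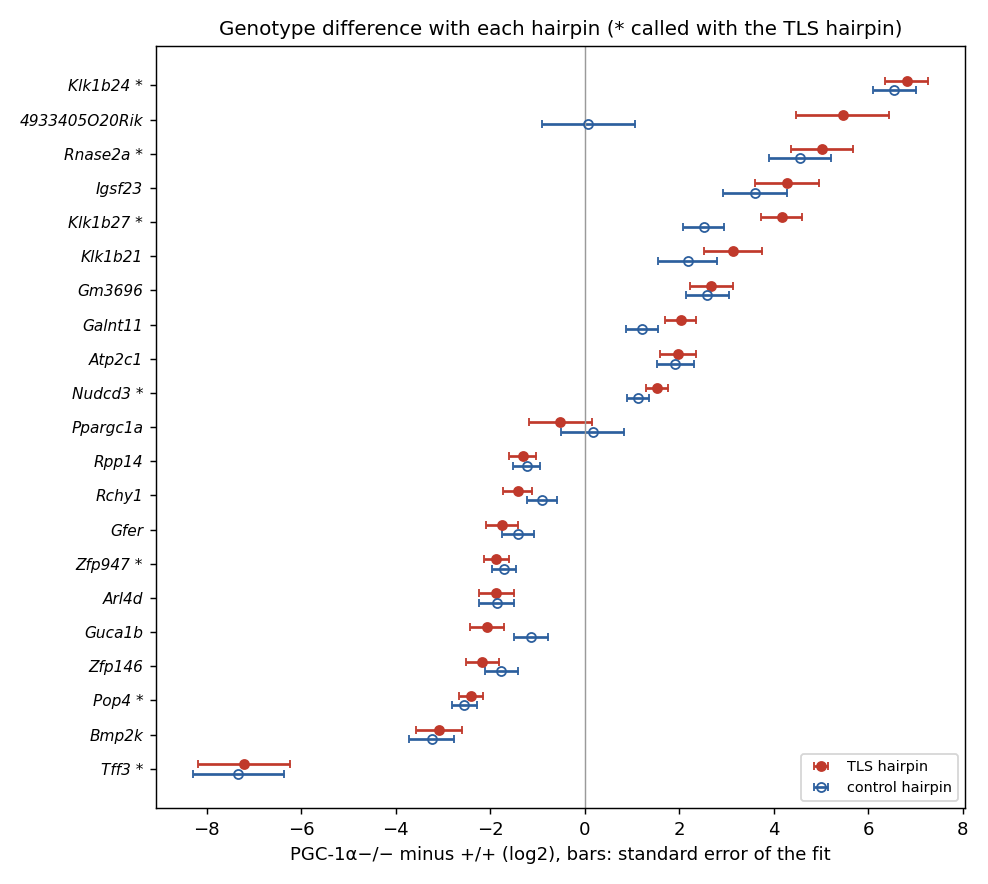
Genotype difference (-/- minus +/+, log2) of 21 named genes with the TLS hairpin (filled red) and the control hairpin (open blue), with the standard error of the fit. An asterisk marks the 7 genes called with the TLS hairpin. Most pairs of points lie close together, and 4933405O20Rik is far from 0 with the TLS hairpin alone.

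No gene was called in the lists that PGC-1alpha is best known for. Of 54 tested subunits of oxidative phosphorylation 0 were called (limma; 0 at an unadjusted p under 0.05, and 0 with the replicate block). Their median difference was -0.02 against 0.01 over all genes, and members ranged from -0.46 to 0.30. For 52 of the 54 (96.3%) the 95% interval lay inside a 2-fold change in either direction, against 38.2% of all genes. The members farthest from 0 relative to their error were Cox7a2 (-0.46, SE 0.33), Uqcrb (-0.37, SE 0.28), Uqcrc1 (0.30, SE 0.24) and Ndufb8 (0.30, SE 0.26), parts of complexes IV, III, III and I. The sign of the median turned with spike-in scaling (0.03).

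In the tricarboxylic acid cycle 0 of 19 were called (0 at an unadjusted p under 0.05) and the median was -0.08, with 15 of 19 intervals inside 2-fold. In fatty acid oxidation and ketogenesis 0 of 29 were called (0 unadjusted), with a median of 0.02. There Etfa, which passes electrons from acyl-CoA dehydrogenases, differed by -0.38 (SE 0.26) and Acads, a short-chain acyl-CoA dehydrogenase, by 0.51 (SE 0.35). The intervals of these 29 were wider, and 12 lay inside 2-fold.

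Among 32 genes of antioxidant and mitochondrial redox defence 0 were called (0 unadjusted), and the median was -0.01. Prdx2, a cytosolic peroxiredoxin, differed by 0.51 (SE 0.38), Msra, which repairs oxidised methionine, by -0.53 (SE 0.34), and Glrx, a glutaredoxin, by 0.70 (SE 0.58). Gpx1, a glutathione peroxidase, read 15.79, 16.10 and 15.79 in -/- cells and 15.74, 15.64 and 15.46 in +/+ cells, a difference of 0.28 (SE 0.22). It was the 1 gene of the 32 whose arrays did not overlap, a share near the 2.73% of all genes with every -/- array above every +/+ array. Sod2, mitochondrial superoxide dismutase, and Cat, catalase, were picked as textbook targets outside the naming rule. Sod2 read 13.99, 15.65 and 14.72 against 14.36, 15.45 and 15.04, a difference of -0.16 (95% interval -1.26 to 0.94). Cat differed by -0.13 (-1.09 to 0.83). In both genes the replicates of a genotype lay farther apart than the genotypes did.

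Of 25 genes of gluconeogenesis and glucose handling 0 were called (0 unadjusted), with a median of -0.15 and 6 of 25 above 0. The sign was lower in all 3 same-numbered pairs for 9 of 25, against 16.6% of all genes. For 3 of 25, Pdk2 among them, every -/- array lay below every +/+ array, against 2.6% of all genes. The list's median was -0.302 with 75th percentile scaling, -0.344 without -/- replicate 2, and -0.411 and -0.308 without +/+ replicate 1 and 3. With the control hairpin it was -0.549. Ppp1r3b, which directs protein phosphatase to glycogen, read 5.32, 6.40 and 4.63 in -/- cells and 6.47, 7.31 and 5.80 in +/+ cells, a difference of -1.08 (SE 0.59). Pdk2, a pyruvate dehydrogenase kinase, read 5.18, 4.71 and 4.94 against 5.36, 5.69 and 5.48, a difference of -0.57 (SE 0.34). Gys2, liver glycogen synthase, differed by -1.75 (SE 1.30). G6pc, the last enzyme of glucose release and again a textbook target outside the rule, read 5.10, 6.25 and 7.33 against 4.97, 6.64 and 7.52. Its difference was -0.15 with an interval of -2.27 to 1.97, so a 4-fold lower level could not be told from none at this precision.

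The coactivator family and the factors PGC-1alpha docks on gave a median of -0.17 over 24 tested genes, with 0 called (0 unadjusted). Esrra, the nuclear receptor ERR alpha, differed by 0.37 (SE 0.31), Kat2a, an acetyltransferase, by 0.35 (SE 0.25), Foxo1 by -0.39 (SE 0.36) and Gabpa by -0.41 (SE 0.39). ERR alpha recognises the letters AAGGTCA. Read on both strands (AAGGTCA or TGACCTT) in the 300-base promoter windows of RefSeq, this motif was present in 4 of 42 oxidative phosphorylation genes with a window (9.52%) and in 1 of 19 genes named by the rule, Klk1b21. Of all 32851 windows 4.72% hold it. A match of letters is no measured binding.

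Genes of the interferon response leaned higher in -/- cells, although none passed the test. Of 32 tested, 0 were called (limma; 1 at an unadjusted p under 0.05, and 0 with the replicate block), 29 were above 0 and the median was 0.72. Of the 30 above background on all 6 arrays, 28 were above 0. In 21 of 32 the -/- array was higher in all 3 same-numbered pairs, against 16.2% of all genes, and the list's median was 0.89, 0.96 and 0.73 in the 3 pairs. Psmb8, a subunit of the immunoproteasome, read 13.61, 12.22 and 12.30 in -/- cells and 12.37, 11.40 and 11.29 in +/+ cells, a difference of 1.02 (SE 0.45). Replicate 1 was the highest array of both genotypes, so the groups overlapped.

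Ddx58, the RIG-I sensor of viral RNA, read 9.94, 9.60 and 8.66 against 8.87, 8.43 and 7.90, a difference of 1.00 (SE 0.46). Oas2, an oligoadenylate synthetase, read 8.39, 6.92 and 3.88 against 5.81, 3.25 and 1.35, a difference of 2.93 (SE 1.43). In both genes replicate 1 was the highest and replicate 3 the lowest array of each genotype, and each -/- array lay above its same-numbered partner. Gbp3, a guanylate-binding protein, differed by 1.24 (SE 0.62). Without -/- replicate 1 the list's median was 0.33 with 23 of 32 above 0. With the control hairpin the list's median was 0.43.

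Lists of markers of non-parenchymal liver cells also had medians above 0. All 19 tested markers of macrophages and Kupffer cells were above 0, with a median of 1.11, but 0 were called (limma; 0 unadjusted). Of the 19, 15 were above background on all 6 arrays, all of them above 0 with a median of 1.09. The others entered the test through 1 genotype alone. The median of the 19 was 1.925 with the control hairpin, and with the TLS hairpin 1.75, 1.50 and 0.28 in pairs 1 to 3. Without -/- replicate 1 it was 0.489 with 17 of 19 above 0, and without -/- replicate 3 it was 1.80. The summed linear level of these 19 markers was 44730, 16640 and 11450 in -/- cells and 16250, 7899 and 10870 in +/+ cells, so replicate 1 of the -/- cells carried by far the most. Mpeg1, the pore-forming protein of macrophages, read 12.24, 10.79 and 9.32 against 10.83, 8.73 and 8.59, a difference of 1.40 (SE 0.92). C1qa, a complement subunit made by macrophages, read 9.98, 7.18 and 6.28 against 7.93, 3.01 and 5.55, a difference of 2.31 (SE 1.59).

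Endothelial markers gave a median of 0.88 with 19 of 19 above 0, and 1.75, 1.35 and -0.48 in the 3 pairs. It was 0.305 with 15 of 19 above 0 without -/- replicate 1, and 0.57 without +/+ replicate 2. Their summed level was 41240, 16650 and 12600 in -/- cells and 16290, 7547 and 16620 in +/+ cells. Markers of stellate cells and fibroblasts gave a median of 0.70 with 13 of 15 above 0, 2.03, 0.55 and -0.35 in the pairs, and -0.15 once -/- replicate 1 was left out, with 6 of 15 above 0. Their summed level was 208900, 119600 and 56360 in -/- cells against 81760, 86870 and 48590. No marker of any of these 3 lists was below background on all 6 arrays, and 0 were called in each (0 unadjusted). Above background on all 6 arrays were 17 of the 19 endothelial markers, with 17 above 0. For the 15 stellate markers it was 13, with 11 above 0. The others entered the test through 1 genotype alone. With the control hairpin the endothelial median was 0.49 and the stellate median 0.823. In pair 3, where the endothelial and stellate medians were below 0 and the macrophage median was 0.28, the interferon median was 0.73. The part of these cells in the interferon values was not tested, and in bulk RNA more cells of a type and more RNA per cell cannot be told apart.

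**Figure D5:**
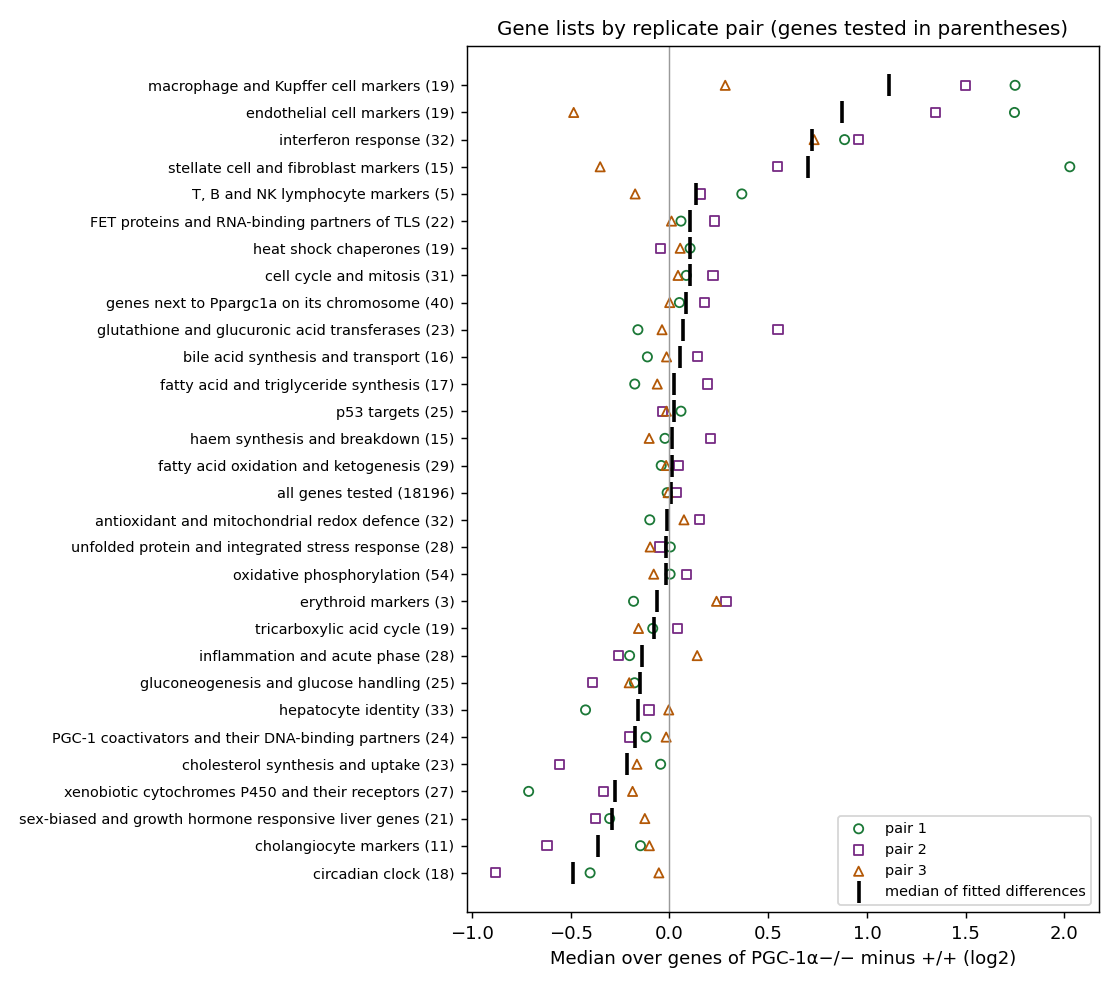
Median genotype difference (-/- minus +/+ under TLS knockdown, log2) of 29 gene lists and of all genes tested, for each same-numbered pair of arrays (open symbols) and as the median of the fitted differences (black bar); genes tested are in parentheses. Macrophage, endothelial and stellate markers spread widely between pairs, interferon genes stay above 0 in all 3, and oxidative phosphorylation lies near 0.

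The hepatocyte list had a median slightly below 0. Of 33 hepatocyte identity genes 0 were called (0 unadjusted), 9 were above 0 and the median was -0.16 (-0.42, -0.10 and -0.003 in pairs 1 to 3). Alb read 16.86, 16.96 and 17.19 in -/- cells and 17.55, 17.53 and 17.39 in +/+ cells without overlap, a difference of -0.49 (SE 0.24). With spike-in scaling the median was 0.01. Without -/- replicate 1 it was -0.015 with 16 of 33 above 0, and without -/- replicate 3 it was -0.284.

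Within the xenobiotic cytochromes P450, 3 of 4 tested Cyp2b genes were lower on every -/- array than on any +/+ array. Over all genes tested this held for 2.6%, and none of the 4 was called. Cyp2b genes encode enzymes induced through the nuclear receptor CAR, and Cyp2b9 and Cyp2b13 are also more abundant in female than in male mouse liver. Probes for the Y-linked genes Kdm5d, Ddx3y, Eif2s3y and Uty were above background on 0 of the 12 arrays and Xist on 12. Cyp2b9 and Cyp2b13 are shown because their upstream windows, 250 bases each (RefSeq, GRCm38.p6, plus strand, chr7:26173159-26173408 and chr7:26061245-26061494), are identical at 248 of 250 positions. Capitals mark the 2 positions that differ.
Cyp2b9: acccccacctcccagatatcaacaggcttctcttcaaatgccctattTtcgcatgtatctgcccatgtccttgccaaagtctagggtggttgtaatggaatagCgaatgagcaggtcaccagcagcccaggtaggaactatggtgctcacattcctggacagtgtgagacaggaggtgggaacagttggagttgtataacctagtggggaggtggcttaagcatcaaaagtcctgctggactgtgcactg
Cyp2b13: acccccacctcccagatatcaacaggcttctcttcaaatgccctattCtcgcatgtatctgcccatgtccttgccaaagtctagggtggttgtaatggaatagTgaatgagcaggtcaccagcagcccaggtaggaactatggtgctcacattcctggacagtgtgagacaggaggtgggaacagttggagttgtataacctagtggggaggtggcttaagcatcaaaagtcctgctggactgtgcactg
The window of Cyp2b10 shared 72.7% of aligned bases with either. Whether the probe of a Cyp2b gene also picks up another copy was not tested.

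Cyp2b9 read 9.33, 9.13 and 11.98 in -/- cells and 13.99, 12.77 and 13.39 in +/+ cells, a difference of -3.23 (SE 1.05). Cyp2b13 read 6.59, 6.39 and 10.16 against 11.74, 11.02 and 11.54, a difference of -3.72 (SE 1.20). Cyp2b10 read 5.89, 5.60 and 9.37 against 11.07, 10.15 and 10.87, a difference of -3.74 (SE 1.18). In all 3 genes -/- replicates 1 and 2 lay far below the +/+ cells and replicate 3 came close to them, without overlap. None passed the test (limma, adjusted p = 1.00 for each). Cyp2b19, the fourth, differed by 0.04 (SE 0.30) with overlapping arrays. With the control hairpin the differences were -4.14, -4.45 and -4.35, with the same order of mice.

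Cyp2a5, a neighbouring coumarin hydroxylase, read 14.71, 17.23 and 15.75 in -/- cells against 13.14, 15.35 and 13.91 in +/+ cells, a difference of 1.76 (SE 0.74). The -/- array was higher in each pair, but the groups overlapped. With the replicate block its limma p was 0.000162 unadjusted and 0.0755 adjusted. Over all 27 tested P450 genes and receptors 0 were called (4 unadjusted), 6 were above 0 and the median was -0.27. Without -/- replicate 1 the median was -0.02 with 13 of 27 above 0. It was -0.113 without +/+ replicate 2, and -0.479 to -0.571 without -/- replicate 2 or 3 or +/+ replicate 1. Of 21 sex-biased or growth hormone responsive genes 0 were called (3 unadjusted) and the median was -0.29. Among these Igfals, the carrier subunit of circulating IGF, read 7.44, 6.51 and 5.99 against 7.97, 7.85 and 7.93, a difference of -1.27 (SE 0.49). In a separate list of glutathione and glucuronic acid transferases, Ugt1a1, the bilirubin glucuronosyltransferase, differed by -1.25 (SE 0.45). That list had 0 called (1 unadjusted), 15 of 23 above 0 and a median of 0.07.

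The circadian clock list had a median of -0.49, with 0 of 18 called (limma; 1 unadjusted) and 2 of 18 above 0. Pair 2 gave -0.88 and pair 3 gave -0.05. With 1 array left out the median ranged from -0.743 (without +/+ replicate 1) to -0.248 (without +/+ replicate 2), and it was -0.267 without -/- replicate 1. With the control hairpin the list's median was -0.522. Dbp, a clock output factor and 1 of the 2 members above 0, read 9.80, 9.89 and 9.21 in -/- cells against 8.39, 9.11 and 8.96, a difference of 0.82 (SE 0.29). Per1 differed by -0.66 (SE 0.43), Cry2 by -0.64 (SE 0.41) and Nfil3 by -0.55 (SE 0.36). The labels give no hour at which the cultures were taken beyond the 24 h after infection.

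The RNA-binding partners of TLS gave a median of 0.11 over 22 genes with 0 called (1 unadjusted). Pspc1, a paraspeckle protein, read 9.97, 9.75 and 9.36 in -/- cells against 9.41, 8.54 and 9.14, a difference of 0.66 (SE 0.29), and Hnrnpl differed by 0.68 (SE 0.36). Hspa1a, the inducible heat shock protein, differed by -1.10 (SE 0.50) without overlap, within a chaperone list whose median was 0.11. Blvrb, a biliverdin reductase, read 13.94, 14.59 and 14.25 against 13.58, 13.60 and 13.50, a difference of 0.70 (SE 0.26). In cholesterol synthesis Msmo1 differed by -0.67 (SE 0.39), and in bile acid transport Abcc4 differed by 1.20 (SE 0.60). In each of the 29 lists 0 members were called, with and without the replicate block.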

How the data were processed

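Total RNA of 12 cultures was labelled with Cy3 and hybridised to 1-colour Agilent arrays, 4 to a slide on 3 slides. Per the submitters' processing notes the authors used Agilent Feature Extraction 10.1.1.1 and limma. The deposited values analysed here are log2 values, normalised by the authors between arrays. They correlated at 0.998 to 1.00 per array with log2 processed signals of the deposited array files, averaged by probe without normalisation between arrays. The processed signals are intensities on a linear scale, per the file headers. Other deposited columns flag spots well above background.

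Probes above background on all 3 arrays of either shTLS group were tested (23881 of 41174). Symbols came from RefSeq accessions (GRCm38.p6), which matched 24367 probes. Each gene or accession was represented by the tested probe with the highest mean (18196 in all, 4559 with several probes). Means of the 4 groups were fitted to all 12 arrays with limma 3.58.1 in R 4.3.3, with two-sided moderated tests and Benjamini-Hochberg adjustment over all genes. An exact test of 3 against 3 arrays cannot go below p = 0.1. The code was tested on simulated data.

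Each replicate number is an independent assay and a slide. Deviations of same-numbered arrays from their group means correlated at 0.524 to 0.607 and others at -0.345 to -0.146, so the numbers pair the samples. Unless another fit is named, standard errors, intervals and unadjusted counts come from the fit without this block. Their error includes differences between the pairs. The 6 shTLS cultures came from 6 separate mice, which also gave the shC cultures.

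Named genes are Ppargc1a, the called genes with a symbol and 1 sign in all 3 pairs (up to 15 each way), filled to 10 each way by smallest p, and per list the called members and up to 4 with the largest t. Some genes this rule would name are not reported here. The members and the 29 lists were chosen with earlier results of these data known. Alternatives covered scaling, background correction, filters, probe choice, blocks and leaving out each array.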

Additional observations from a re-analysis of the deposited data

How the results depend on the processing

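The 16 calls became 34 with the replicate block, and 3 of a smaller set of genes when only probes above background on all 6 arrays were tested. Leaving out 1 array gave 9 to 12 calls, and 9 of the 16 were called each time: 10 genes were called without -/- replicate 3, 9 of them among the 16 and the other Zfp146 (adjusted p = 0.0324), and 9 were called without +/+ replicate 1 or 3. The other processing alternatives gave 11 to 16. The 0 calls of the test between hairpins became 1 without -/- replicate 1. With the control hairpin the 16 calls became 28 with the replicate block, 4 with the stricter filter and 9 to 13 without 1 shTLS array. With 1 array left out Ppargc1a ranged from -0.966 to 0.316, G6pc from -0.853 to 0.422, Sod2 from -0.596 to 0.234, Cat from -0.545 to 0.247 and Klk1b4 from -0.064 to 0.508. Klk1b4 was -0.032 with normexp and G6pc 0.057 with spike-in scaling. Nudcd3, Zfp947 and AK142559 lost their calls under the 75th percentile, spike-in and normexp alternatives. Klk1b27, Tff3, AK049278 and NM_010115 lost theirs under normexp, and Nudcd3 and AK142559 theirs with mouse as a random block. Fitting the 6 shTLS arrays alone ended the calls of Pop4, Zfp947, Nudcd3, NM_021304 and NM_010115, and no filter on background those of Tff3, Rnase2a, AK142559 and NM_010115. With spike-in scaling the median difference of all genes was 0.154. With normexp, which adds an offset of 50, Klk1b24 differed by 3.01 and Tff3 by -3.95. The cause of the changes was not tested.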
